A study of Mus musculus with 40 samples.

Results

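The genes described here are 9 members of the Hedgehog pathway and its uterine circuit, taken by gene name from 54532 genes in mouse uterus RNA-seq: the ligands Ihh and Dhh, the receptor Ptch1, the signal transducer Smo, the transcription factors Gli1, Gli2 and Gli3, the decoy receptor Hhip and the stromal nuclear receptor Nr2f2. Bulk RNA was sequenced from uteri of prepubertal mice (postnatal day 25) in 40 libraries, 5 in each of 8 groups, collected 4 h or 24 h after treatment. The 4 treatments were PBS or saline (control), doxorubicin at 3 mg/kg given weekly in 2 doses, the same doxorubicin with AMH at 0.75 mg/kg, and AMH alone at 0.75 mg/kg. Doxorubicin is an anthracycline chemotherapy drug that breaks DNA, and AMH (anti-Müllerian hormone) belongs to the TGF-beta family and acts by way of SMAD1, SMAD5 and SMAD9. The labels do not say that each biological replicate was a separate mouse, so the p-values measure only the spread between these libraries, which may be technical.

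In the uterus, Indian hedgehog is made by the epithelium under progesterone and binds PTCH1 on the stroma beneath it. PTCH1 without ligand holds SMO inactive. With ligand, SMO is released at the primary cilium and GLI factors turn on Ptch1, Gli1 and Hhip, so the RNA of these genes is widely read as a measure of pathway output. Nr2f2 encodes COUP-TFII, a stromal nuclear receptor that acts downstream of IHH in preparing the endometrium for implantation.

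Levels are the authors' deposited FPKM, that is fragment counts set relative to the gene's length and the library's depth, which allows levels of different genes to be compared. Between 16251563 and 27391049 reads per library were assigned to genes. Differences between groups are log2 fold changes of FPKM + 1 with a standard error (SE), from limma. A gene was called when its Benjamini-Hochberg adjusted p over all 16226 tested genes was under 0.05. Counts at an unadjusted p under 0.05, and counts by limma-voom, are given without the share of all genes under the same rule and are a description only. The shares of all genes printed near them belong to the adjusted p of the main test and are no background for them. Epcam, an epithelial marker, and Pdgfra, a stromal one, were present in every group, with mean levels of 70.7 to 128 FPKM and 19.9 to 41.3 FPKM. The doxorubicin target Cdkn1a, a cell cycle inhibitor controlled by p53, rose with doxorubicin at 4 h by 3.39 (log2 fold change, limma adjusted p = 6.6e-07).

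A pair of measured features of the libraries moved with several of these genes and is given beside the results. A score over 27 oestrogen-responsive genes (mean of log2(FPKM + 1), all 27 in the table and 1 of them under 0.1 FPKM on average) stood more than 0.6 above its median in 7 libraries: control replicates 1, 2 and 4, doxorubicin replicates 1 and 4 and AMH replicate 3 at 24 h, and doxorubicin replicate 2 at 4 h. These are called the high-oestrogen libraries. The score ranged from 3.22 to 5.56 in the control libraries at 24 h and from 2.93 to 3.32 with doxorubicin and AMH at 24 h. At 4 h it ranged from 3.24 to 3.89 in control, above all libraries with AMH alone (2.73 to 3.12). The score thus differed by treatment as well as between libraries of a group. Leaving out the high-oestrogen libraries therefore selects on a score that moved with treatment, and whether treatment changed it was not tested. A score over 15 oviduct and ciliated cell markers stood more than 1 above its median in 9 libraries, 3 of them of doxorubicin at 24 h (the high-oviduct libraries). In bulk RNA, fewer cells of a type and less RNA per cell cannot be told apart.

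Of the 9 genes, 8 were tested. Smo had the highest median level over the 40 libraries (34.2 FPKM), followed by Nr2f2 (31.7), Gli1 (24.5), Ptch1 (7.52), Gli2 (6.86), Ihh (4.44), Gli3 (2.79), Dhh (0.365) and Hhip (0.334). Control replicate 2 at 24 h held the lowest value of Ihh, Ptch1, Gli1, Gli3 and Nr2f2. Of the 8 genes with a read in every library, levels spread most for Ihh, with a highest value 455 times the lowest, and least for Smo, at 2.04 times; Dhh was at 0 in 1 library. When the 8 groups were placed in order of their mean for each gene, 3 of 63 neighbouring pairs were further apart than the larger of their SDs, and in 0 pairs did the ranges separate.

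**Figure D1:**
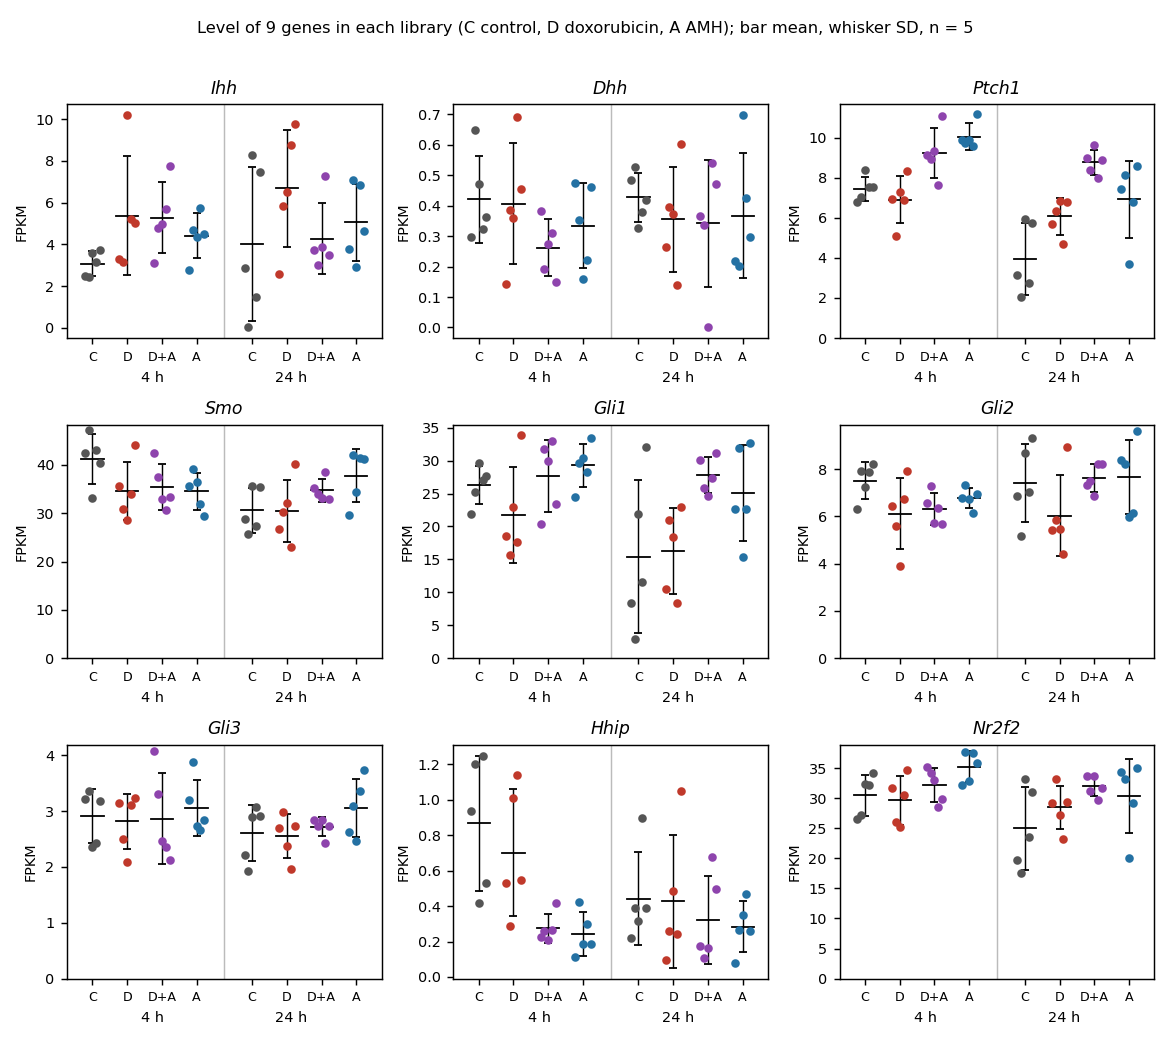
Level in FPKM of each of the 9 genes in all 40 libraries, by treatment (C control, D doxorubicin, D+A doxorubicin with AMH, A AMH) and time; points are libraries, bars are group means and whiskers the SD (n = 5). Ptch1 libraries with doxorubicin and AMH at 24 h sit between 7.98 and 9.61 FPKM, all above the control libraries of that time, and the control libraries at 24 h spread widely for Ihh, Ptch1, Gli1 and Nr2f2.

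Ptch1 and Nr2f2 varied together more closely than any other pair of the 8 tested genes (Pearson r = 0.84 within groups over 40 libraries, as a description), so their RefSeq promoter windows (GRCm38.p6, minus strand for both) are set side by side. Only the 250 bases before each start are printed, at chr13:63565736-63565985 for Ptch1 and chr7:70366747-70366996 for Nr2f2. The Ptch1 window lies within an intron of longer annotated transcripts of the gene, and that of Nr2f2 lies within an exon of the noncoding gene B130024G19Rik on the other strand. Capitals mark a GC box (GGGCGG on either strand):
Ptch1: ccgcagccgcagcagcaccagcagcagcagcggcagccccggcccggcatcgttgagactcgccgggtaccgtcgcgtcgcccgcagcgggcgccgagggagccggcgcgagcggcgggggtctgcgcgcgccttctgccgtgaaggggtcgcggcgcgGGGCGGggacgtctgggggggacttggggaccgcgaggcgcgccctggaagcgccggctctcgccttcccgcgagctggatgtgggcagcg
Nr2f2: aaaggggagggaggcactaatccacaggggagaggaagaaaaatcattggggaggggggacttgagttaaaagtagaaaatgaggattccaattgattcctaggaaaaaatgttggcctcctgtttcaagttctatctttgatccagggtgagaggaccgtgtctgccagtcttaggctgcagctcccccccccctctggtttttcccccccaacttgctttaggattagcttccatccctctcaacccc
The Ptch1 stretch was 78.4% G and C with 41 CpG pairs and 1 GC box, and the Nr2f2 stretch was 50% G and C with 1 CpG pair and 0 GC boxes. Entries were found for 8 of the 9 genes. Over each whole window, which runs a little past the start, searched on both strands, GGGCGG was present in 6 of the 8 (Ihh, Dhh, Ptch1, Gli2, Gli3 and Hhip) and in 35.7% of all 32851 windows. The GLI consensus GACCACCCA was present in 0 of the 8 and in 0.253% of all windows, and the nuclear receptor half-site AGGTCA in 0 of the 8 and in 16.3% of all windows. None of these motifs contains another, and a match in these windows is a description of letters only.

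Ihh, the main uterine ligand (chromosome 1, 74945315 to 74951672 in mm10, ENSMUSG00000006538), did not pass the test with all libraries in any treatment comparison. At 4 h its levels in replicates 1 to 5 were 2.48, 2.45, 3.57, 3.16 and 3.73 FPKM in control and 3.29, 3.16, 10.2, 5.21 and 5.05 FPKM with doxorubicin. At 24 h they were 2.86, 0.0224, 8.29, 1.48 and 7.48 FPKM in control and 2.59, 5.84, 6.49, 8.77 and 9.77 FPKM with doxorubicin. The control libraries at 24 h thus covered both the lowest value of the series, a single read, and some of its highest, and they overlapped every other group. Doxorubicin against control at 24 h gave a log2 fold change of 0.93 ± 0.38 (SE, limma adjusted p = 0.075). The value was -0.11 without the high-oestrogen libraries and 0.46 without control replicate 2. Ihh was called higher without control replicate 3 (1.25) or 5 (1.22) or doxorubicin replicate 1 (1.18; limma adjusted p = 0.011, 0.021 and 0.04), with array weights (adjusted p = 0.0088) and by limma-voom (adjusted p = 0.032). With doxorubicin and AMH at 24 h Ihh stood at 3.74, 3.01, 3.86, 7.27 and 3.51 FPKM, and against doxorubicin alone the difference was -0.50 ± 0.38 (adjusted p = 0.61, limma, interval -1.27 to 0.27). AMH alone gave means of 4.42 ± 1.06 FPKM at 4 h and 5.05 ± 1.85 FPKM at 24 h (SD, n = 5). In control libraries Ihh at 24 h differed from 4 h by -0.10 ± 0.38, and without the high-oestrogen libraries, which leaves 2 control libraries at 24 h, it was higher by 1.13 (limma adjusted p = 0.036). The 3 highest Ihh values of the series were in high-oviduct libraries, and within groups Ihh followed the oviduct score with r = 0.43; the part of oviduct tissue in its level was not tested.

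Dhh, the ligand known from Schwann and Sertoli cells (chromosome 15, 98891152 to 98898540), was below 1 FPKM in all 40 libraries and was not tested. Group means lay between 0.263 ± 0.0929 FPKM, with doxorubicin and AMH at 4 h, and 0.427 ± 0.0797 FPKM, in control at 24 h (SD, n = 5). The counts behind them were 0 to 76 reads per library, and the 1 library without a read was doxorubicin with AMH replicate 3 at 24 h. The gene shares its position with Rhebl1 and the antisense gene Gm49442, and whether counting used strand is not given in the sources used here, so some of these reads may belong to them. The Schwann cell marker Sox10, picked after its values were seen, had group means of 0.119 to 0.419 FPKM. A score over 12 Schwann cell and nerve markers (mean of log2(FPKM + 1)) had 0 of them under 0.1 FPKM on average. Its lowest library value was 1.10, with doxorubicin at 4 h, and its highest 1.67, with AMH at 4 h. Sox10 alone thus does not stand for these markers, and the part of Schwann cells in the Dhh level was not tested. Shh, the other member of the ligand family, was listed at 0 in 37 of 40 libraries and reached 0.515 FPKM in 1.

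Ptch1, the receptor and a GLI-responsive gene (chromosome 13, 63508328 to 63573598, ENSMUSG00000021466), was called in 4 of the 16 comparisons, more than any other of these genes. In control libraries it stood at 6.77, 7.03, 8.38, 7.52 and 7.52 FPKM at 4 h and at 3.14, 2.07, 5.95, 2.77 and 5.76 FPKM at 24 h. With doxorubicin and AMH at 24 h its levels were 8.98, 8.39, 9.61, 7.98 and 8.90 FPKM. Every one of these lay above every control library of 24 h, and every control library of 24 h lay below every one of 4 h. Doxorubicin with AMH against control at 24 h gave 1.06 ± 0.17 (log2 fold change ± SE, limma adjusted p = 7.8e-05). Of 8 members 3 were called higher in that comparison, beside 34.3% of all genes called in either direction and 15.7% called higher, and Ptch1 was the 1 member without overlap, beside 8.73% of all genes. Of all genes called there 45.9% were higher; scaled instead to the total reads in genes, which moved the median of all genes by 0.11 (log2), 69.7% were higher and the differences of Ptch1, Gli1 and Nr2f2 were 1.17, 1.29 and 0.52. Without the high-oestrogen libraries, which leaves 2 control libraries, the Ptch1 difference was 0.51 (limma adjusted p = 0.012).

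The other 24 h treatments gave Ptch1 levels between those of control and of doxorubicin with AMH. Doxorubicin alone gave 5.71, 6.34, 6.84, 4.67 and 6.77 FPKM, and AMH alone gave 7.43, 8.12, 3.71, 6.77 and 8.56 FPKM. Both overlapped the control range, the AMH group through replicate 3, a high-oestrogen library. Against the same 5 control libraries, which these comparisons share, doxorubicin gave 0.58 ± 0.17 (limma adjusted p = 0.019) and AMH 0.72 ± 0.17 (limma adjusted p = 0.046). Ptch1 was the 1 of 8 members called in each, beside 18.4% and 0.462% of all genes. Neither call held without the high-oestrogen libraries, where the differences were 0.16 (adjusted p = 0.74) and 0.34 (adjusted p = 0.73, limma). Fitted with the compared groups alone they gave adjusted p = 0.17 and 0.67, and leaving out the high-oviduct libraries gave 0.11 and 0.073 (limma). Those libraries include doxorubicin replicates 3, 4 and 5, but no control or AMH library of 24 h. The doxorubicin test thus had fewer libraries, while the AMH comparison kept all of its own. The doxorubicin call was also lost without control replicate 1, 2 or 4 at 24 h or doxorubicin replicate 3 (adjusted p 0.057 to 0.09, limma), and the AMH call without control replicate 1, 2 or 4 or AMH replicate 1, 2, 4 or 5 (0.092 to 0.24).

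At 4 h Ptch1 stood at 9.87, 9.74, 9.89, 9.56 and 11.2 FPKM with AMH alone, and at 9.11, 8.95, 9.31, 7.64 and 11.1 FPKM with doxorubicin and AMH. All 5 AMH libraries lay above all 5 control libraries, as did 11.3% of all genes. The difference was 0.39 ± 0.17 (limma adjusted p = 0.092) and did not pass the test. Without the high-oestrogen libraries the same difference gave adjusted p = 0.00074 (limma), although none of those libraries belongs to either group. All groups share 1 estimate of the spread in the fit, so leaving out libraries of other groups changes the test and not the difference. Doxorubicin alone at 4 h gave 6.91 ± 1.18 FPKM against 7.45 ± 0.613 FPKM in control (SD, n = 5), a difference of -0.11 ± 0.17 (limma adjusted p = 0.85).

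Smo, the transducer that PTCH1 holds in check (chromosome 6, 29735503 to 29761365), was called in 1 comparison, that of control libraries at 24 h with those at 4 h. Its levels there were 42.4, 47.1, 33.1, 43.1 and 40.3 FPKM at 4 h and 28.9, 25.8, 35.6, 27.3 and 35.5 FPKM at 24 h. The ranges overlap through replicate 3 at 4 h, and Smo fell by 0.42 on the log2 scale (limma adjusted p = 0.039). In the treated groups its means ran from 30.5 ± 6.39 FPKM, with doxorubicin at 24 h, to 37.7 ± 5.47 FPKM, with AMH at 24 h (SD, n = 5).

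Gli1, the GLI factor whose own transcription follows pathway activity (chromosome 10, 127329882 to 127341974, ENSMUSG00000025407), shares its position with Arhgap9 and Gm47200 on the other strand, so reads of those genes could be counted in it. At 24 h its levels were 8.43, 2.91, 21.9, 11.6 and 32.1 FPKM in control and 30.1, 25.9, 24.7, 27.4 and 31.1 FPKM with doxorubicin and AMH. The control libraries fell into a low set, the high-oestrogen replicates 1, 2 and 4, and replicates 3 and 5, which lay below or just above the treated range. Gli1 rose by 1.16 ± 0.33 (log2 fold change ± SE, limma adjusted p = 0.0081). Without the high-oestrogen libraries the difference was 0.06 (adjusted p = 0.94, limma), with the compared groups alone it gave adjusted p = 0.11, and without control replicate 2 at 24 h it was 0.73 (adjusted p = 0.057).

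Doxorubicin alone gave Gli1 levels of 10.5, 21.0, 18.4, 8.35 and 23.0 FPKM at 24 h, all below those with doxorubicin and AMH. The lowest of these were replicates 1 and 4, both high-oestrogen libraries. The difference of doxorubicin with AMH from doxorubicin alone was 0.83 ± 0.33 for Gli1 (limma adjusted p = 0.3) and 0.48 ± 0.17 for Ptch1 (limma adjusted p = 0.24). None of 8 members was called there, beside 0.333% of all genes. At an unadjusted p under 0.05 there were 3 (Ptch1, Gli1 and Gli2), and by limma-voom 0. In this comparison 2 members, Ptch1 and Gli1, had no overlap and were higher, as were 1.41% of all genes. With AMH alone at 24 h Gli1 stood at 22.7, 31.9, 15.4, 22.6 and 32.7 FPKM, 0.97 ± 0.33 above control (limma adjusted p = 0.14).

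Gli2, the main activator among the GLI factors (chromosome 1, 118834132 to 119053619), and Gli3, the main repressor (chromosome 13, 15463235 to 15730026), were called in 0 of the 16 comparisons. Group means ran from 6.02 ± 1.71 to 7.66 ± 1.56 FPKM for Gli2 and from 2.56 ± 0.391 to 3.06 ± 0.522 FPKM for Gli3 (SD, n = 5). For doxorubicin with AMH against control at 24 h the 95% intervals of the log2 fold change were -0.23 to 0.35 for Gli2 and -0.20 to 0.30 for Gli3, against 0.50 to 1.82 for Gli1.

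Hhip, the membrane decoy that binds Hedgehog ligand and is itself GLI-responsive (chromosome 8, 79965851 to 80058006), was lower with AMH at 4 h. Its levels were 0.937, 1.20, 0.420, 1.25 and 0.528 FPKM in control, 0.115, 0.426, 0.187, 0.301 and 0.187 FPKM with AMH and 0.228, 0.258, 0.208, 0.264 and 0.415 FPKM with doxorubicin and AMH. The control libraries held 70 to 289 Hhip reads and the AMH libraries 19 to 72, and the groups overlapped through control replicate 3 and AMH replicate 2. Hhip fell by 0.57 on the log2(FPKM + 1) scale with AMH (limma adjusted p = 0.017), and by 1.46 with a pseudocount of 0.1, since the pseudocount of 1 understates changes of low genes. It was the 1 of 8 members called in that comparison, beside 20% of all genes in either direction and 10.9% lower. The call was lost without control replicate 2 (-0.50, limma adjusted p = 0.057) or 4 (-0.49, limma adjusted p = 0.054) at 4 h. Hhip reached the filter of 1 FPKM in exactly the 5 libraries it asks for, 2 of them controls at 4 h, so that its being tested leans on the group where it was high; with all genes tested the adjusted p was 0.026 (limma).

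With doxorubicin and AMH at 4 h, all 5 Hhip values lay below all 5 control values, as for 3.57% of all genes, and the difference of -0.53 ± 0.16 gave adjusted p = 0.12 (limma). None of the 8 members was called in that comparison, beside 0.394% of all genes; at an unadjusted p under 0.05 there was 1, Hhip, and by limma-voom 0. Doxorubicin alone left Hhip at 0.703 ± 0.358 FPKM against 0.867 ± 0.38 FPKM in control (SD, n = 5). At 24 h Hhip means were 0.284 to 0.443 FPKM and no comparison of treatments was called. Within groups Hhip followed the oviduct score with r = 0.55, and 4 of the 5 libraries at 1 FPKM or more were high-oviduct libraries; the call for AMH at 4 h held without the high-oviduct libraries (-0.56, limma adjusted p = 0.021).

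Nr2f2, the stromal nuclear receptor downstream of IHH (chromosome 7, 70351944 to 70366735, ENSMUSG00000030551), overlaps B130024G19Rik on the other strand. Its levels at 24 h were 19.7, 17.5, 33.3, 23.5 and 31.1 FPKM in control and 33.7, 31.2, 33.7, 29.8 and 31.7 FPKM with doxorubicin and AMH. Control replicates 3 and 5 lay within the treated range and replicates 1, 2 and 4 below it. Nr2f2 rose by 0.38 ± 0.14 (log2 fold change ± SE, limma adjusted p = 0.029), and the difference was -0.01 without the high-oestrogen libraries (adjusted p = 0.98, limma). With the compared groups alone adjusted p was 0.13, and leaving out control replicate 1, 2 or 4 or replicate 1 or 3 of doxorubicin with AMH gave 0.058 to 0.14 (limma). Doxorubicin alone, at 29.3, 33.3, 27.2, 23.3 and 29.4 FPKM, and AMH alone, at 34.4, 33.3, 20.0, 29.3 and 35.0 FPKM, did not pass the test, and the lowest library of each was a high-oestrogen one. At 4 h Nr2f2 was highest with AMH alone, with 32.2, 37.8, 32.9, 37.6 and 35.9 FPKM against 26.5, 27.3, 32.4, 32.2 and 34.2 FPKM in control, a difference of 0.21 ± 0.14 (limma adjusted p = 0.28).

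**Figure D2:**
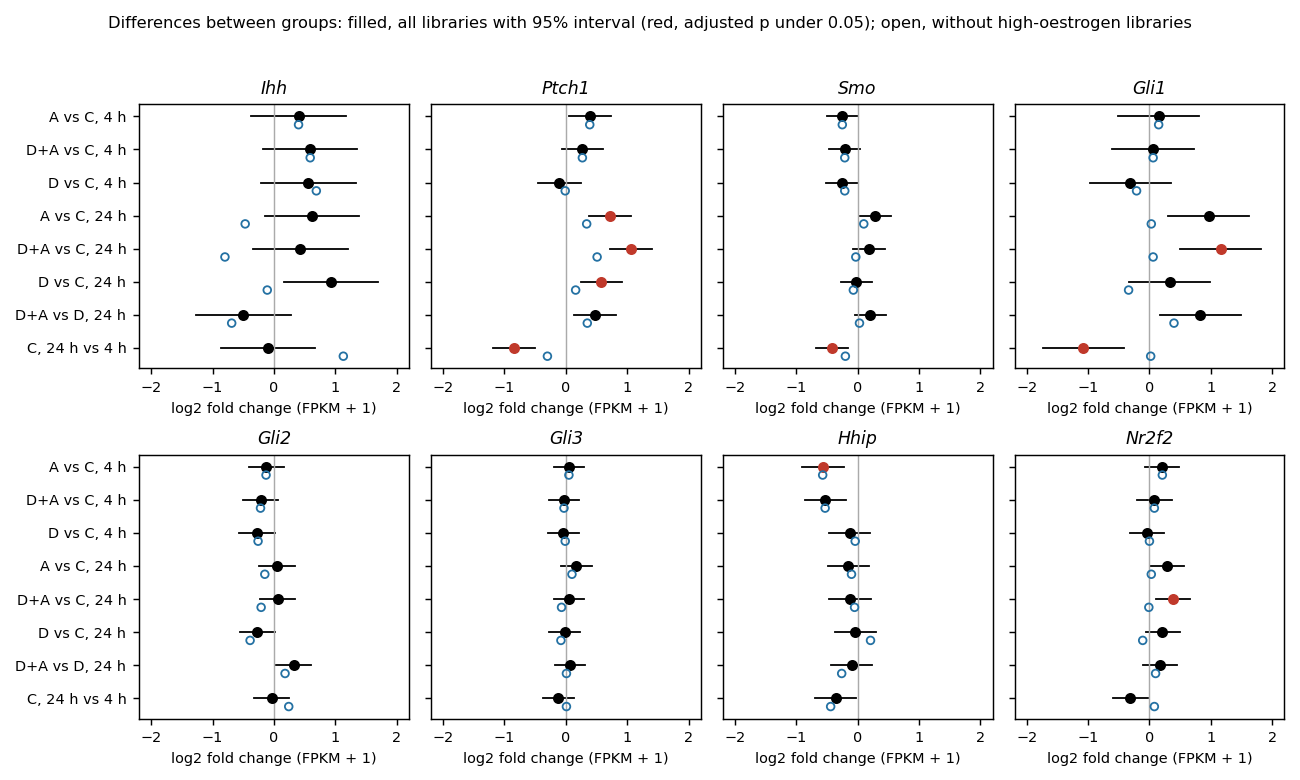
Log2 fold change (FPKM + 1) of the 8 tested genes in 8 comparisons; filled points use all libraries, with 95% intervals and red for adjusted p under 0.05, and open points leave out the 7 high-oestrogen libraries. For doxorubicin with AMH against control at 24 h, leaving them out takes Gli1 from 1.16 to 0.06, Nr2f2 from 0.38 to -0.01 and Ptch1 from 1.06 to 0.51; for doxorubicin alone Gli1 goes from 0.33 to -0.34.

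Between 4 h and 24 h the control group itself moved. Ptch1 fell by 0.85 on the log2 scale (limma adjusted p = 0.0019), Gli1 fell by 1.08 (adjusted p = 0.039) and Smo by 0.42, so that 3 of 8 members were called, all lower, beside 7.32% of all genes. Gli1 was at 21.9, 25.2, 29.6, 27.0 and 27.7 FPKM at 4 h, and replicates 1, 2 and 4 of 24 h lay below all of these. Ptch1 alone did not overlap between the times, as for 2.06% of all genes lower. Without the high-oestrogen libraries the Ptch1 difference was -0.30 (adjusted p = 0.094), that of Smo -0.20 (adjusted p = 0.51) and that of Gli1 0.02 (adjusted p = 0.98, limma), and with the compared groups alone adjusted p was 0.1 for Ptch1. The Gli1 call was also lost without control replicate 2, 3, 4 or 5 of 4 h or 1, 2 or 4 of 24 h (adjusted p 0.059 to 0.2), and the Smo call without replicate 1, 2, 4 or 5 of 4 h or 1, 2 or 4 of 24 h (0.072 to 0.13, limma).

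In the treated groups 0 members were called between the times. With AMH alone Ptch1 at 24 h lay below 4 h in all libraries, as for 3.18% of all genes, with a difference of -0.52 ± 0.17 (limma adjusted p = 0.063). With doxorubicin, or doxorubicin and AMH, 0 of 8 members were called, beside 1.58% and 0.074% of all genes, with 0 members at an unadjusted p under 0.05 and 0 by limma-voom. For AMH alone these counts were 0 called, beside 4.01% of all genes, 1 unadjusted (Ptch1) and 0 by limma-voom. The Ptch1 differences were -0.16 ± 0.17 and -0.06 ± 0.17. Whether a treatment effect differed between the times was tested directly. The doxorubicin effect on Ptch1 at 24 h minus that at 4 h was 0.69 ± 0.24 (limma adjusted p = 0.49) and the same value for the AMH effect was 0.33 ± 0.24 (adjusted p = 0.6), so that no difference between the times was shown; 0 of 8 members were called in either test, beside 0.0123% and 0.154% of all genes.

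The effect of AMH with and without doxorubicin was also compared. The interaction at 24 h was -0.24 ± 0.24 for Ptch1, -0.14 ± 0.46 for Gli1 and -1.12 ± 0.54 for Ihh (adjusted p = 0.93, 0.96 and 0.93, limma). Without the high-oestrogen libraries these were 0.01, 0.37 and -0.22, and without control replicate 2 at 24 h -0.09, 0.29 and -0.65. The sign for Gli1 and the sizes for Ptch1 and Ihh thus did not hold. The sign for Ptch1 changed only in the first of these settings, and there only to 0.01. Leaving out 1 library gave -0.42 to -0.09 for Ptch1, -0.48 to 0.29 for Gli1 and -1.45 to -0.65 for Ihh. Of the 8 members 0 were called at either time, beside 0% of all genes, with 0 at 4 h and 1 at 24 h (Ihh) at an unadjusted p under 0.05 and 0 by limma-voom. Doxorubicin against control at 4 h gave 0 of 8 members called, beside 0.493% of all genes, and adding AMH to doxorubicin at 4 h also gave 0, beside 0.00616%. At an unadjusted p under 0.05 these had 0 and 2 members (Ptch1 and Hhip), and by limma-voom 0 in both.

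The levels of the 2 ligands and of 4 genes that respond to them were compared over the 40 libraries after removing group means. Ihh and Ptch1 had a Pearson r of 0.65 (permutation p = 0.0033, adjusted over 7 relations 0.012) and a Spearman rho of 0.47 (permutation p = 0.014, adjusted 0.049). For Ihh and Gli1 r was 0.71 (permutation p = 0.0031, adjusted 0.012) and rho 0.51 (permutation p = 0.0076, adjusted 0.049). Without control replicates 2 and 4 at 24 h, the farthest from the median of Ihh, r was 0.44 and 0.50 (unadjusted permutation p = 0.031 and 0.023). Without control replicate 2 alone, r was 0.54 for both and neither passed (adjusted permutation p = 0.079). Without the 7 high-oestrogen libraries r was 0.10 and 0.26, and neither passed (adjusted permutation p = 0.65 and 0.39). Those libraries include control replicates 1, 2 and 4 at 24 h, and their part in the relations was not tested. For Ihh, r was 0.25 with Hhip and 0.43 with Nr2f2 (adjusted permutation p = 0.22 and 0.16, rho 0.29 and 0.21). Without control replicates 2 and 4 at 24 h, r for these was 0.51 and 0.20 (unadjusted permutation p = 0.0039 and 0.37). Dhh gave r of -0.25 with Ptch1, -0.03 with Gli1 and 0.38 with Hhip (adjusted permutation p = 0.16, 0.85 and 0.082; rho -0.18, 0.01 and 0.31), and -0.02, 0.04 and 0.37 without doxorubicin with AMH replicate 3 and AMH replicate 3 at 24 h.

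Ptch1, Gli1 and Nr2f2 were lower where the oestrogen score or the epithelial score was high. These relations were chosen after the values were seen, among 40 relations of 8 genes with 5 scores (oestrogen, oviduct, epithelial, stromal and smooth muscle). Within groups r with the oestrogen score was -0.89 for Ptch1 and for Nr2f2 (permutation p = 1.0e-05, the floor of 100000 resamples, adjusted 6.7e-05), with rho of -0.79 and -0.82 (permutation p = 1.0e-05 for both, adjusted 8.0e-05). For Gli1 r was -0.81 (permutation p = 5.0e-05, adjusted 0.00029) and rho -0.68 (permutation p = 0.00013, adjusted 0.00087). Ihh gave r = -0.66 (permutation p = 0.004, adjusted 0.011), rho = -0.43 (permutation p = 0.027, adjusted 0.056), and Hhip r = 0.03 with rho = 0.01 (permutation p = 0.87 and 0.97, adjusted 0.88 and 0.97). For Gli2, Smo and Gli3 r was -0.62, -0.44 and -0.44 (adjusted permutation p = 0.0039, 0.034 and 0.023; rho -0.56, -0.44 and -0.40). The epithelial score gave relations of similar size, with r of -0.90 for Nr2f2, -0.83 for Gli1, -0.82 for Gli2 (adjusted permutation p = 6.7e-05 for each) and -0.79 for Ptch1 (adjusted permutation p = 0.00071), and rho of -0.83, -0.66, -0.85 and -0.54. For both scores the 2 libraries farthest from the median were control replicates 1 and 2 at 24 h. Without them r with the oestrogen score was -0.85 for Ptch1, -0.85 for Nr2f2, -0.70 for Gli1 and -0.50 for Ihh. With the epithelial score it was -0.70 for Ptch1, -0.86 for Nr2f2, -0.71 for Gli1 and -0.29 for Ihh. The epithelial score, a mean over 15 markers, moved in the same libraries, from 4.98 to 6.88 in control at 24 h and from 4.95 to 5.24 with doxorubicin and AMH, while the stromal score over 12 markers ran from 5.91 to 6.51 and from 5.91 to 6.11. Within groups r with the stromal score was 0.81 for Gli3, 0.65 for Smo, 0.52 for Gli2 and 0.46 for Nr2f2 (adjusted permutation p = 6.7e-05, 0.00076, 0.013 and 0.023). For Gli1, Ptch1, Ihh and Hhip it was 0.34, 0.24, -0.06 and -0.03 (adjusted permutation p = 0.11, 0.3, 0.84 and 0.88). A smooth muscle score over 12 markers ran from 7.17 to 7.57 in control at 24 h, above all libraries with doxorubicin and AMH (6.57 to 6.79) and with doxorubicin (6.22 to 6.85), and from 6.63 to 7.34 with AMH; within groups its r was -0.09 with Ptch1, -0.22 with Gli1 and 0.11 with Nr2f2. The part of these scores in the differences of Ptch1, Gli1 and Nr2f2 at 24 h was not tested.

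**Figure D3:**
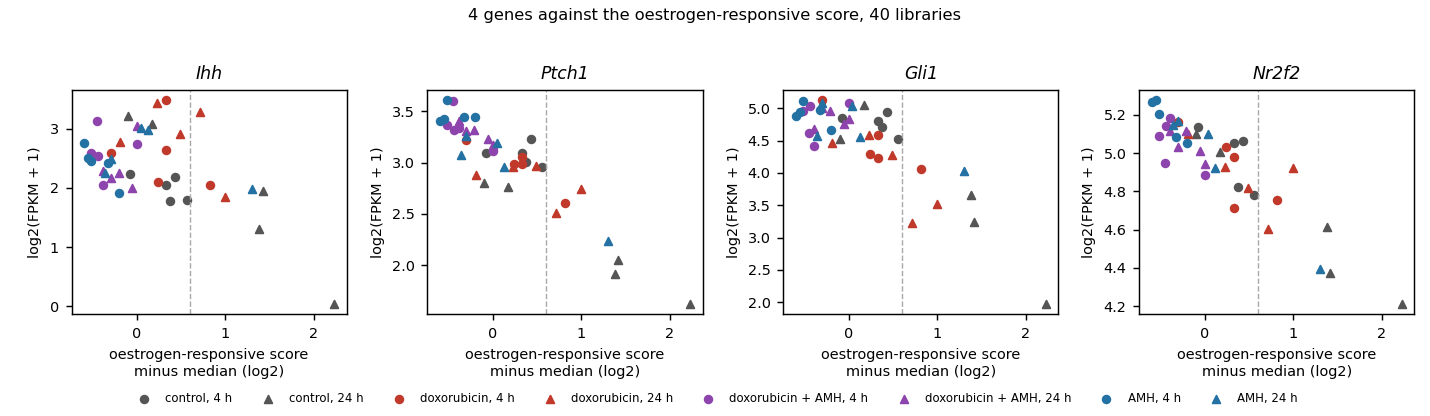
Level of Ihh, Ptch1, Gli1 and Nr2f2 (log2(FPKM + 1)) against the oestrogen-responsive score minus its median, in 40 libraries coloured by treatment with circles for 4 h and triangles for 24 h; the dashed line marks the 0.6 used to name high-oestrogen libraries. Levels of Ptch1, Gli1 and Nr2f2 are lowest in the libraries to the right, control replicate 2 at 24 h being the last.

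Genes of the pathway beyond the 9 were read from 5 lists. Of the 20 genes of the primary cilium, the organelle through which the signal passes, 12 rose and 0 fell with doxorubicin and AMH against control at 24 h (median log2 fold change 0.34, against -0.00 for all genes tested), beside 34.3% of all genes called and 15.7% called higher. With doxorubicin alone 8 rose and 1 fell (median 0.26), beside 18.4% of all genes: Tmem67, a transition zone protein, rose by 0.44 (limma adjusted p = 0.0048), Arl13b, a ciliary GTPase, by 0.63 (adjusted p = 0.0051) and Mks1, another transition zone protein, by 0.68 (adjusted p = 0.0058), while the 1 lower was Tulp3, an adaptor that carries membrane proteins into the cilium (-0.31, limma adjusted p = 0.038). Leaving out the high-oestrogen libraries gave counts of 1 and 0 of 20, with medians of 0.06 and 0.09. For this and the other lists, counts at 24 h with libraries left out are given without the share of all genes called there. Over the alternatives that keep all libraries or drop a set, all genes called fell as low as 128 with doxorubicin and AMH and 25 with doxorubicin. A lower count in such a setting is therefore no result about a list. The high-oviduct libraries carry markers of motile ciliated cells. Without them doxorubicin with AMH gave 12 higher and 2 lower and doxorubicin alone 2 higher and 1 lower, with medians of 0.37 and 0.26. They include doxorubicin replicates 3, 4 and 5 at 24 h, so fewer libraries were left to the test of doxorubicin alone. AMH alone gave 2 of 20 higher at 4 h, Inpp5e and Tctn1 (0.34 and 0.44, limma adjusted p = 0.037 and 0.047; median 0.23), beside 20% of all genes, and 0 at 24 h. Doxorubicin with AMH at 4 h gave 0 of 20 called by limma, beside 0.394% of all genes (median 0.30, against 0.01 for all genes). At an unadjusted p under 0.05 there were 14, a count given without the share of all genes under that cut-off and so no result about the list. Without the high-oestrogen libraries, none of which belongs to these 4 h groups, the counts at 4 h were 4 higher with doxorubicin and AMH and 6 higher with AMH (medians 0.30 and 0.23, beside 3.67% and 30% of all genes), and without the high-oviduct libraries 0 and 0 (medians 0.28 and 0.27).

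Among 19 tested genes of the intracellular route, doxorubicin with AMH at 24 h gave 6 higher and 3 lower than control (median 0.21), beside 34.3% of all genes called. Doxorubicin alone gave 2 higher and 2 lower (median 0.07), near the 18.4% of all genes, among them Iqce, which anchors the SMO partners EVC and EVC2 in the cilium (0.40, limma adjusted p = 0.021), Stk36 (0.60, adjusted p = 0.042) and Grk2, a kinase that acts on SMO (-0.27, limma adjusted p = 0.02). Sufu, the cytoplasmic inhibitor of the GLI factors, gave 0.09 ± 0.10 (limma adjusted p = 0.48) with doxorubicin and AMH and -0.11 ± 0.10 (limma adjusted p = 0.45) with doxorubicin at 24 h. With AMH at 4 h 1 was higher, beside 20% of all genes called. It was Spop, the adaptor that marks GLI factors for degradation (0.22, limma adjusted p = 0.035). At 24 h 0 of 19 were called with AMH, beside 0.462% of all genes. With the high-oestrogen libraries left out, 1 rose and 0 fell with doxorubicin and AMH at 24 h and 0 were called with doxorubicin.

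Of 12 tested genes for ligand processing and co-receptors, 3 rose and 1 fell with doxorubicin and AMH at 24 h (median 0.09), and 1 rose and 1 fell with doxorubicin (median 0.01). Both counts are near the shares of all genes called, 34.3% and 18.4%, and are no result about the list. The pair with doxorubicin were the co-receptors Boc (0.48, limma adjusted p = 0.025) and Gas1 (-0.58, adjusted p = 0.0065). AMH at 4 h gave 1 higher, beside 20% of all genes called. It was Scube2, which helps release lipid-bearing ligand (0.89, limma adjusted p = 0.0083). AMH at 24 h gave 1 higher and 0 lower, beside 0.462% of all genes. When the high-oestrogen libraries were left out, the counts at 24 h were 1 higher and 1 lower with doxorubicin and AMH, and 0 with either agent alone.

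Of 10 tested genes that respond to GLI factors in mesenchyme, 4 rose and 0 fell with doxorubicin and AMH at 24 h (median 0.39), 0 were called with doxorubicin (median 0.24, with 2 at an unadjusted p under 0.05), and 1 rose and 0 fell with AMH (median 0.26), beside 34.3%, 18.4% and 0.462% of all genes called. With AMH at 4 h called genes of the list went both ways, beside 9.13% of all genes called higher and 10.9% lower. Bmp4, a secreted BMP ligand, rose by 0.87 (limma adjusted p = 0.022) and Bcl2, a survival gene, by 0.62 (limma adjusted p = 0.016). Ccnd1, a cell cycle gene that many signals control, was lower (-1.10, limma adjusted p = 0.0054). The median of the list was -0.03. Once the high-oestrogen libraries were left out, 1 of 10 rose and 0 fell with doxorubicin and AMH at 24 h (median 0.20).

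The progesterone and IHH axis had 16 tested genes, of which 3 rose and 2 fell with doxorubicin and AMH at 24 h (median 0.09), 1 rose and 1 fell with doxorubicin (median 0.00) and 0 rose and 1 fell with AMH (median 0.11). Of all genes 34.3%, 18.4% and 0.462% were called, so the counts for doxorubicin, with and without AMH, did not exceed the background. Bmp2, a stromal target of IHH signalling needed for decidualisation, rose by 0.78 with doxorubicin and AMH (limma adjusted p = 0.0047), while Hand2, a stromal progesterone target, gave 0.60 ± 0.25 (limma adjusted p = 0.064). The receptors Pgr and Esr1, and Wnt4, a stromal ligand gene, gave 0.19 ± 0.15, -0.09 ± 0.08 and -0.03 ± 0.27 in the same comparison and were not called (limma adjusted p = 0.33, 0.4 and 0.95). Foxa2, a glandular epithelial factor, rose with doxorubicin (0.93, limma adjusted p = 0.02). Gata2, which acts with the progesterone receptor, was lower with doxorubicin (-0.20, limma adjusted p = 0.042) and higher with doxorubicin and AMH than with doxorubicin (0.45, limma adjusted p = 0.0024). Errfi1, a feedback inhibitor of EGF receptor signalling, was lower with AMH (-1.48, limma adjusted p = 0.00072) and with doxorubicin and AMH than with doxorubicin (-1.29, limma adjusted p = 0.0041). With AMH at 4 h 1 of 16 was higher, beside 20% of all genes called. It was the epithelial factor Sox17 (0.59, limma adjusted p = 0.02). In the same comparison Id3, a SMAD1/5/9 target read as a check of the AMH response, rose by 0.77 (limma adjusted p = 0.0062). The axis without the high-oestrogen libraries gave 0 higher and 2 lower with doxorubicin and AMH at 24 h. With doxorubicin alone 0 of 16 were called without the high-oestrogen libraries or without the high-oviduct ones, which include doxorubicin replicates 3, 4 and 5. In these 2 settings Foxa2 gave 0.39 (limma adjusted p = 0.75) and 0.85 (limma adjusted p = 0.13). Gata2 gave -0.23 (limma adjusted p = 0.45) and -0.22 (limma adjusted p = 0.087).

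**Figure D4:**
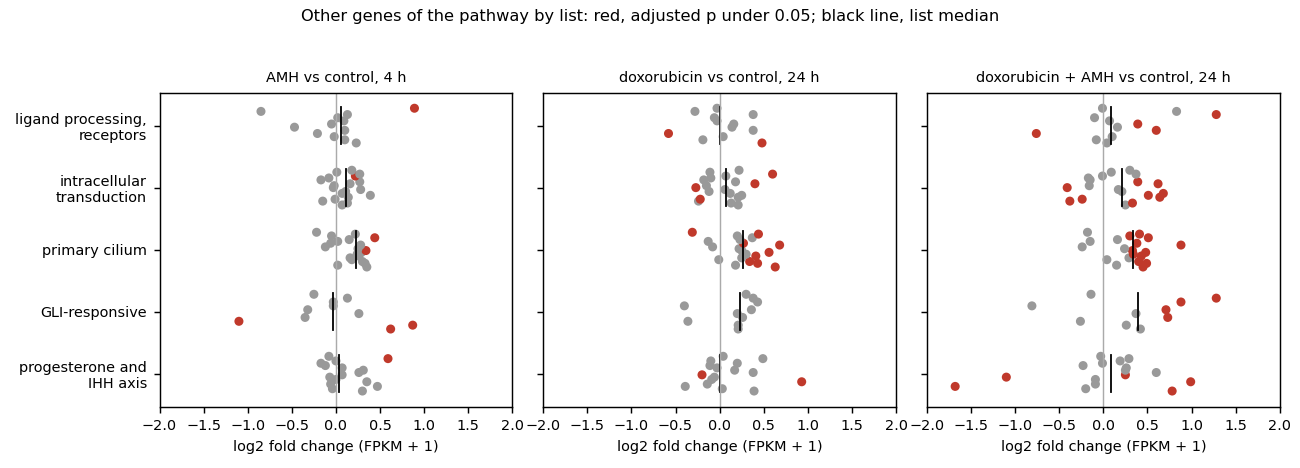
Log2 fold change (FPKM + 1) of each tested gene of the 5 pathway lists in 3 comparisons; red points have an adjusted p under 0.05 and the black line is the list's median. The cilium list lies to the right of 0 at 24 h (medians 0.26 and 0.34), and Errfi1 is the point farthest left with doxorubicin and AMH (-1.68).

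The genes whose level followed a member most closely over the 40 libraries were named by Pearson r among 11346 protein-coding genes. For Ihh these were Slc2a3 (r = 0.80), Gstm7 (0.76), Jam2 (0.75), Stox2 (0.75) and Dkk3 (0.74). Gli1 was followed by Slc6a2 and Ano1 (0.91 each) and by Vegfa, Gdf10 and Tmem132c (0.90 each). For Nr2f2 the closest were Osr2 (0.93), Fmo1 (0.92), and Efnb3, Sema5a and Evc (0.91 each), of which Evc is one of the transduction genes above. Within groups r for these 15 genes ran from 0.75 to 0.91, so that the likeness was present among libraries of the same treatment. All points share the library's scaling and its position on the oestrogen score, so the values are given as a description.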

How the data were processed

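Per the labels, uterine total RNA was isolated with a Qiagen product and Novogene built the libraries. A single gene table of FPKM values, with names, positions and lengths, was deposited by the authors. The build is mm10 per the submitters' processing notes; an aligner, a counter, an annotation release and the use of strand were not given in the sources used here. Gene positions were the same as in GENCODE M21 for 98.3% of shared genes. FPKM times gene length gave whole reads in 100% of values (tolerance 0.01 reads), and the divisor that the deposited FPKM imply carried a median-of-ratios size factor. Libraries held 16251563 to 27391049 reads in genes; 0 columns of values were left unmapped.

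The test took the 16226 genes, of 35714 above 0, that reached 1 FPKM in 5 or more of the 40 libraries. They were fitted on the scale log2(FPKM + 1) by limma (version 3.58.1, R 4.3.3), with an intensity trend, 8 groups in 1 fit and 32 residual degrees of freedom. P-values were two-sided and adjusted within each of 16 comparisons (Benjamini-Hochberg, threshold 0.05). Relations over libraries used 100000 permutations within groups, two-sided. Figures were drawn with Python 3.11.15 and matplotlib 3.10.9.

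The 9 genes, the lists, the scores and the cut-offs for the high-oestrogen and high-oviduct libraries were chosen with earlier results of these data known. All 9 were named, as were Shh, Sufu, Pgr, Esr1, Hand2, Bmp2, Wnt4, Cdkn1a and Id3, and up to 3 called genes with the smallest p per list from 4 comparisons; for likeness, the 5 closest genes. Some genes that this rule takes are not reported here. Genes named outside this rule (Epcam, Pdgfra, Sox10) were chosen after their values were seen. On simulated data (16226 genes, doxorubicin against control at 24 h) the test recovered 4.41%, 36.4% and 93.9% of genes changed by 1.5, 2 and 4 times, and it called 3 of the 16026 left unchanged. The simulation gave all genes the same dispersion and held no libraries that stand apart, unlike these data. It checks that the test runs as meant and does not give its recovery or false calls here. Libraries of a group all differed by more than sampling noise (the smallest chi-square over its degrees of freedom was 9.61). Replicate numbers did not pair the libraries (see the closing section). Alternatives were another pseudocount, no filter, other scalings, a replicate block, limma-voom on the rebuilt reads, array weights, fits of the compared groups alone, and leaving out the high-oestrogen libraries, the high-oviduct libraries or each library in turn.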

Additional observations from a re-analysis of the deposited data

Results flagged for a closer look

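Single libraries stood apart from the other 4 of their group for 5 of 72 combinations of gene and group (Dixon's test at the 95% level), where chance flags about 1 in 20. Ihh was 7.27 FPKM in replicate 4 of doxorubicin with AMH at 24 h, against 3.01 to 3.86 FPKM in the others, and Gli3 in the same library was 2.43 FPKM against 2.73 to 2.85 FPKM. Its oviduct score was 3.16 above the median. Hhip was 0.415 FPKM in replicate 5 of doxorubicin with AMH at 4 h, against 0.208 to 0.264 FPKM, a library with an oviduct score 3.99 above the median. Hhip was also high in control replicate 4 at 24 h, at 0.898 FPKM against 0.221 to 0.39 FPKM, where the oestrogen score was 1.38 above the median. Ptch1 was 11.2 FPKM in AMH replicate 5 at 4 h, against 9.56 to 9.89 FPKM, with neither score high. The part of either score in these values was not tested.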

How the results depend on the processing

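Counts of called members are given here as main against alternative. Without the high-oestrogen libraries they were 0 against 1 (Ptch1) for doxorubicin with AMH at 4 h, 1 against 2 for AMH at 4 h, 1 against 0 for doxorubicin and for AMH at 24 h, 3 against 1 for doxorubicin with AMH at 24 h, 3 against 1 (Ihh) for control over time and 0 against 1 for AMH over time. Nr2f2 with doxorubicin and AMH at 24 h reversed to -0.01, and over time in control Ihh to 1.13 and Gli1 to 0.02; r was 0.10 for Ihh and Ptch1 and 0.26 for Ihh and Gli1. This setting leaves 2 control libraries at 24 h. Without the high-oviduct libraries doxorubicin and AMH at 24 h had 0 each, control over time 1, and Ihh and Nr2f2 r = 0.71 (adjusted permutation p = 0.011). Those libraries include doxorubicin replicates 3, 4 and 5 of 24 h, but no control or AMH library of that time. With the compared groups alone the counts were 2 for AMH at 4 h, 0 for doxorubicin, 1 for doxorubicin with AMH and 0 for AMH at 24 h, and 0 for control over time. With no filter AMH at 24 h had 0 and control over time 1; with limma-voom doxorubicin at 24 h had 2. Array weights gave 1 for doxorubicin with AMH and 3 for AMH at 4 h, 3 for doxorubicin, 5 for AMH and 3 for AMH added to doxorubicin at 24 h, 1 for AMH over time, and 1 each for the difference between the times of the doxorubicin and the AMH effect. In comparisons that hold none of the libraries left out, the group means stay the same. Only the estimate of the spread, which all groups share in the fit, and the adjustment of p change there. The cause of the other changes was not tested.

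Leaving out 1 library gave 0 to 2 for doxorubicin, 1 to 3 for doxorubicin with AMH and 0 to 3 for AMH at 24 h, 0 to 1 for AMH at 4 h, 1 to 4 for control over time and 0 to 1 for AMH over time; r ran from 0.54 to 0.71 for Ihh and Ptch1, 0.54 to 0.79 for Ihh and Gli1, 0.17 to 0.33 for Ihh and Hhip, and 0.30 to 0.42 for Dhh and Hhip. The replicate block changed no member count (3 against 3 for doxorubicin with AMH at 24 h). Same-numbered libraries of different groups had a median r of 0.02 against -0.01 for other numbers, in 0 of 28 pairs of groups was every r above 0.1, and 14 of 40 libraries correlated best with their own number. Median-of-ratios scaling changes nothing by construction. Total-read scaling, chosen after seeing the data as were the relations with scores, changed no member count and moved the share of higher calls from 45.9% to 77.9% for doxorubicin and 41.3% to 69.4% for AMH at 24 h, and 58.5% to 33.2% for control over time. Over the alternatives that keep all libraries or drop a set, the genes called of all tested ranged from 25 to 6875 for doxorubicin (main 2984), 128 to 8545 for doxorubicin with AMH (main 5566) and 3 to 4094 for AMH (main 75) at 24 h, and 95 to 3124 for control over time (main 1188). Depth limits Dhh and Hhip most, at 0 to 76 and 14 to 289 reads per library.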
